A study of Mus musculus with 6 samples.

Results

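Semaphorins, plexins and neuropilins were followed in bone marrow stromal cells (BMSC) before and after residence in the stroke-damaged mouse brain. They comprised 31 of the 18193 genes that the arrays could name, and 78 of 45037 probe sets. Members were taken by gene symbol: 7 secreted class 3 semaphorins, 13 membrane semaphorins of classes 4 to 7, 9 plexins and 2 neuropilins, each measured by at least 1 probe set annotated to that gene alone. Each gene is given at its brightest probe set, judged by the mean log2 signal over the 6 arrays, and its other probe sets are given where they differ. No probe set listed a member beside another gene.

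Affymetrix mouse expression arrays of 2 groups were compared, 3 arrays a group. Both groups descend from the same BMSC line, which was made from the H-2Kb-tsA58 transgenic mouse (a cross of CBA/ca and C57Bl/10), in which the H-2Kb promoter drives a temperature-sensitive SV40 large T antigen, so that the cells grow continuously at 33°C. The naïve Large T BMSC (replicates 1, 3 and 5) were that parent culture, passaged 3 times and never injected. The iLarge T BMSC (replicates 2, 4 and 6) were the same cells after intravenous injection into male C57BL/6J mice of 6 to 8 weeks, 24 h after a 60 min occlusion of the middle cerebral artery; they were recovered with collagenase from the infarcted hemisphere 14 days after injection, regrown at 33°C and passaged 3 times. Each array carried RNA pooled from 3 sets of cultures or 3 hemispheres. Residence in the brain, collagenase release and regrowth cannot be told apart, because all iLarge T BMSC had all of them. Pooling also leaves 3 values a group, whose spread is that of pools.

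Semaphorins are extracellular guidance cues first known for repelling growing axons, and later for steering blood vessels, immune cells and migrating stromal and tumor cells. Class 3 members are secreted and mostly act through a neuropilin that binds the ligand and a plexin that carries the signal into the cell, whereas most membrane members bind plexins directly. Plexins act as GTPase-activating proteins for small R-Ras and Rap GTPases, and in this way loosen integrin adhesion and remodel actin.

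Values are signals of the MAS5 algorithm, a linear brightness scaled to a common mean on each array. A gene is called here when limma, fitted over all 45037 probe sets, put its Benjamini-Hochberg adjusted p under 0.05 and its change reached 2-fold, and all p-values below are such adjusted values unless named otherwise. A signal is called near background when it lay under the 40th percentile of its array, which ranged from 182.5 to 299.6. Differences are iLarge T minus naïve on the log2 scale, with the standard error (SE) of the fit and n = 3 arrays a group, and group levels are mean ± SD.

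The arrays did not form 2 even groups. The bacterial control RNAs added before hybridization put them into 3 pairs, each of 1 naïve and 1 iLarge T array (replicates 1 and 2, 3 and 4, and 5 and 6), with distances of 0.652 to 0.913 within the pairs against 2.18 to 5.01 between naïve and iLarge T arrays of different pairs. Naïve replicate 1 and iLarge T replicate 2 also stood apart for several members, and results that rest on them are given without them as well. Among marker genes, 6 of 7 mesothelial markers fell in iLarge T BMSC, and their summed signal was 156579 to 233148 on the naïve arrays against 3737 to 4998 on the iLarge T arrays. The stromal collagens Col1a1, Col1a2 and Col3a1 were far above background on all 6 arrays, and 1 of 8 stromal markers, Pdgfrb, rose, with summed stromal signals of 151856 to 216793 against 243922 to 428002. Of the 8, 6 had a positive and 2 a negative difference. The negative ones were Nt5e (-1.27, without overlap, limma adjusted p = 0.108) and Pdgfra (-1.01, adjusted p = 0.586). The sums of the macrophage and of the endothelial markers were highest on iLarge T replicate 6, at 28883 and 33796, against at most 10449 and 9620 on any other array. The largest parts of these 2 sums were Cd68 (16962) and Cdh5 (23797). Cx3cr1 and Tek were not highest on that array, while the other markers of both lists were. Cx3cr1 gave 164 on it against 452 and 428 on iLarge T replicates 2 and 4, and Tek gave 1300 against 5703, 8480 and 9080 on the naïve arrays. One of 6 macrophage markers (Csf1r) was called higher, and of 5 endothelial markers 1 was higher (Cdh5) and 1 lower (Tek). None of 4 oligodendrocyte and 5 astrocyte markers was called by limma. One of each list had an unadjusted p under 0.05, Olig2 with a positive and Aldoc with a negative difference. The astrocyte marker Gfap gave 3104 on iLarge T replicate 6 against at most 446 elsewhere, whereas the astrocyte sum was highest on naïve replicate 5 (8288). Of 5 neuron markers 1 (Tubb3) rose, 4 had a positive difference, and Map2 had a negative one (-1.52, limma adjusted p = 0.284). The part of these other markers in the results on the members was not tested. As the samples are bulk RNA, fewer cells of a type and less RNA per cell cannot be told apart.

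Of the 31 members, 2 rose (Sema7a and Sema3e), 2 fell (Sema3d and Sema3f) and 27 were not called. Over all genes, 3.54% were called higher and 3.26% lower. The median difference was 0.26 over the members and 0.06 over all genes. A positive difference was found for 18 members and a negative one for 13, beside 9556 and 8637 of all genes. The 3 signals of one group lay wholly above those of the other for 7 members: higher in iLarge T BMSC for Sema3e, Sema7a, Plxna1 and Plxnb1, and lower for Sema3d, Sema3f and Plxna3. The same was true of 14.5% of all genes in the higher and 13.1% in the lower direction. At the brightest probe sets the limma calls fell on ligands: 3 of 7 class 3 semaphorins, 1 of 13 membrane semaphorins and 0 of 11 receptors. An unadjusted p under 0.05 (limma) was found for 5 receptors, and for 9 of the 31 members in all, 6 higher and 3 lower. Of all 18193 genes, 2106 were higher and 1905 lower at that threshold. A dimmer probe set of the receptor Plxna4 was called lower (limma, log2 difference -5.52, adjusted p = 0.0174). Whether ligands and receptors differ in their calls was not tested. At the level of probe sets, 5 of the members' 78 were called higher and 4 lower, beside 2.47% and 2.27% of all probe sets. Signals stood above the 40th percentile on all 6 arrays for 19 members, and 12 members had at least 1 array under it.

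**Figure D1:**
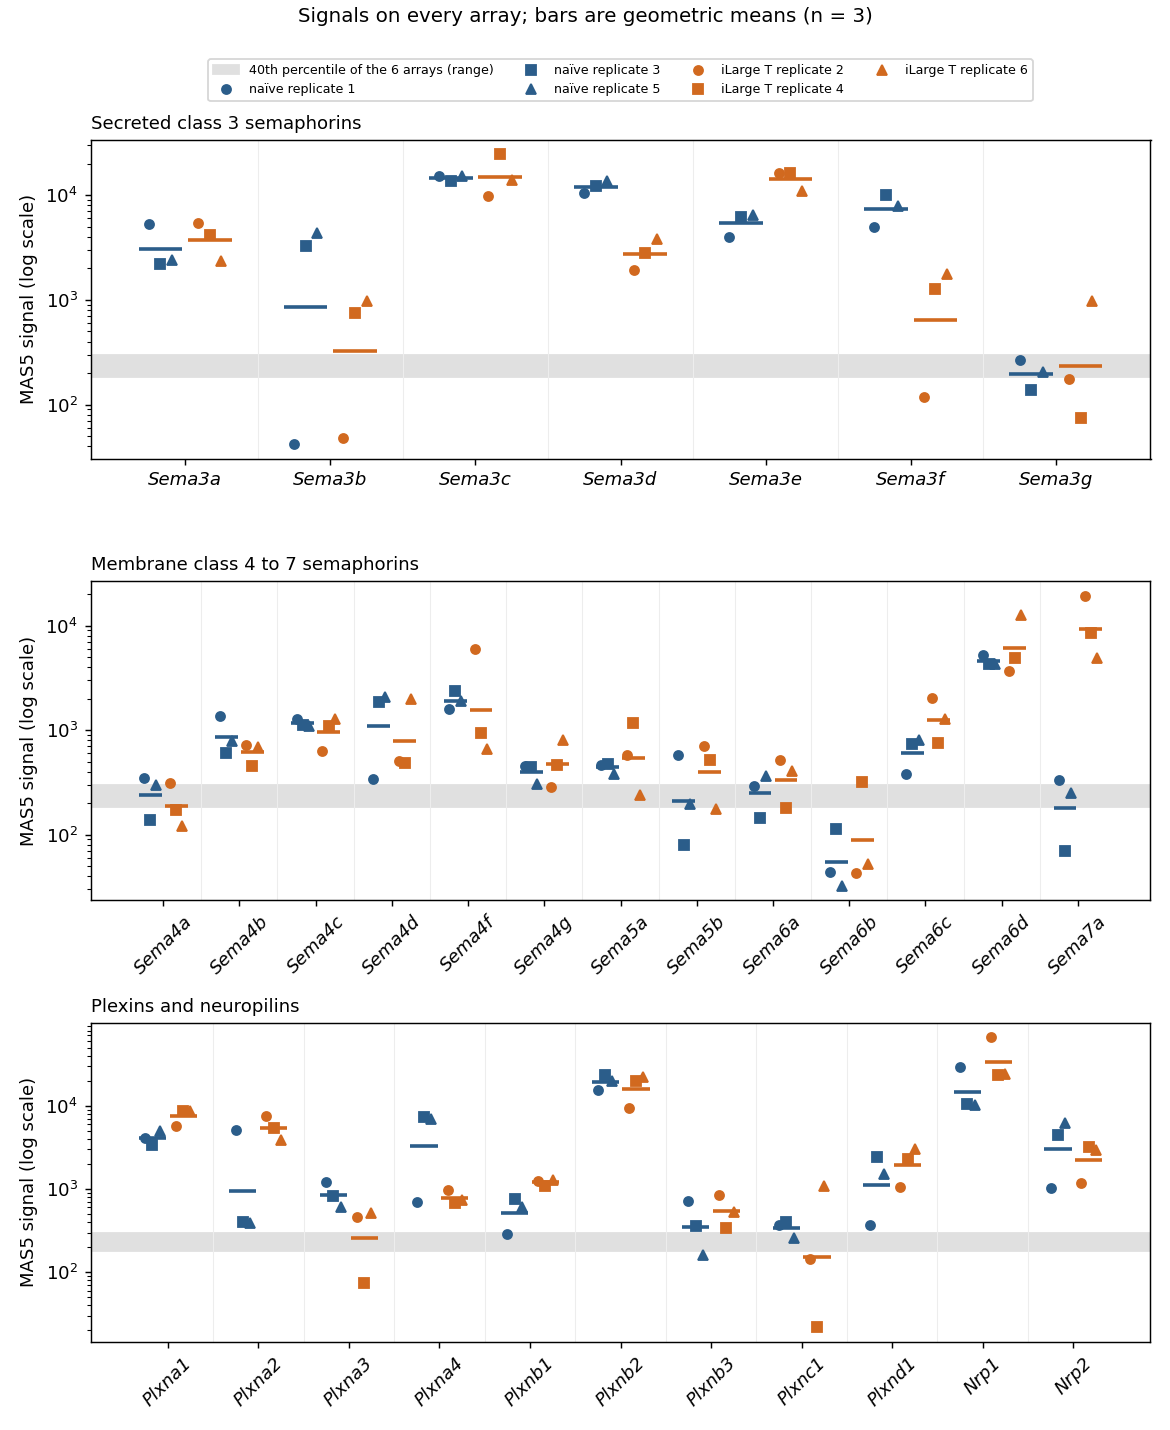
MAS5 signal (log scale) of each gene on each of the 6 arrays, grouped by role, with naïve Large T BMSC in blue and iLarge T BMSC in orange. Like symbols mark arrays with like spike-in signals, bars are geometric means (n = 3), and the grey band is the range of the arrays' 40th percentiles (182.5 to 299.6). Sema7a and Sema3d show no overlap between the groups, while Sema3b, Plxna2 and Plxna4 each have 1 naïve array far from the other 2.

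Among the secreted class 3 semaphorins, Sema3e rose, Sema3d and Sema3f fell, and Sema3a, Sema3b, Sema3c and Sema3g were not called. The median difference of the 7 genes was 0.04.

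Sema3d, a secreted ligand that acts through neuropilin-1, gave signals of 10588, 12121 and 13577 in naïve Large T BMSC (replicates 1, 3 and 5, in this order throughout) and of 1913, 2808 and 3786 in iLarge T BMSC (replicates 2, 4 and 6). The highest iLarge T signal was thus well below the lowest naïve one. The group levels were 12096 ± 1495 and 2836 ± 937 (SD, n = 3), a fall of 4.41-fold (log2 difference -2.14, SE 0.30, adjusted p = 0.00429). Within the 3 pairs of arrays with like spike-in signals the differences were -2.47, -2.11 and -1.84. The other Sema3d probe set fell as well, from 2794, 3470 and 2401 to 615, 990 and 1388 (log2 difference -1.59, adjusted p = 0.0481).

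Sema3e, a ligand of plexin-D1 that needs no neuropilin and is known for repelling endothelial sprouts, moved the other way. Its signals were 3985, 6238 and 6424 on the naïve and 16304, 16263 and 10982 on the iLarge T arrays, again without overlap. Levels were 5549 ± 1358 and 14516 ± 3061 (SD, n = 3), a rise of 2.63-fold (log2 difference 1.40, SE 0.29, adjusted p = 0.0236). Of the 4 Sema3e probe sets, 2 were called higher, the other called one by 1.64 (adjusted p = 0.0480). A further one gave 1.32 (adjusted p = 0.121), and the last gave 0.05 (adjusted p = 0.976), with signals of 1023, 3358 and 3807 against 2900, 2979 and 1697. The Sema3e call was lost when iLarge T replicate 2 (1.30, adjusted p = 0.0904) or iLarge T replicate 4 (1.30, adjusted p = 0.118) was left out, and likewise naïve replicate 3 (1.50, adjusted p = 0.0690) or naïve replicate 5 (1.52, adjusted p = 0.0541), with the difference still above 1 on the log2 scale each time.

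Sema3d and Sema3e lie on the same chromosome with Sema3a between them. In the RefSeq gene table (GRCm38.p6), chromosome 5 holds Sema3d, Sema3a, Sema3e and Sema3c in that order, with 0, 3 and 15 protein-coding genes between neighbours. Of these 4 genes, the first fell, the third rose, and Sema3a and Sema3c were not called. Because the pair moved in opposite directions, the bases just before their annotated starts are shown (RefSeq, GRCm38.p6, both on the plus strand, no further than the gene's first annotated base), Sema3d at chr5:12382916-12383160 and Sema3e at chr5:14025026-14025275, with searched motifs in capitals.
Sema3d: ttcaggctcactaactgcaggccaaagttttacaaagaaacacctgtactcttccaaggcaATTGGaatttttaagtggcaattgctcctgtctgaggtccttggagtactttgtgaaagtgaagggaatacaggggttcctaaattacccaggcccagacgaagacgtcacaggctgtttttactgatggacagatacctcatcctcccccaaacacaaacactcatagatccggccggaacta
Sema3e: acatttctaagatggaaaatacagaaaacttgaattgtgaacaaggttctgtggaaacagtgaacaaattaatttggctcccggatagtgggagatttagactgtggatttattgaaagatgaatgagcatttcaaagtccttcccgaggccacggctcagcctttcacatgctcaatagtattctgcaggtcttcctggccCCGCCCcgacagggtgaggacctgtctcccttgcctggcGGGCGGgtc
The Sema3d window held 1 CCAAT motif, read on the opposite strand, and had a GC content of 46.8% over 250 bases. The Sema3e window held 2 GGGCGG motifs (a GC box), 1 on each strand, with a GC content of 48.0%, against a median of 52.4% over 32851 RefSeq promoters. Among those promoters 33.8% held CCAAT and 32.7% GGGCGG within the 250 bases before the start. TATAAA (12.4% of promoters), CACGTG (6.02%), TGACGTCA (1.55%) and TGANTCA (6.75%) were searched on both strands too, with overlapping matches allowed, and were not in either window. These are matches of letters and no measure of binding. Promoter entries were found for 26 of the 31 members.

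Sema3f, a neuropilin-2 ligand known to repel axons and to restrain vessel growth, gave 5006, 10033 and 7879 on the naïve and 118, 1260 and 1766 on the iLarge T arrays. All 3 iLarge T signals were below all 3 naïve ones, and that of replicate 2 was near background. Levels were 7639 ± 2522 and 1048 ± 844 (SD, n = 3), a fall of 11.5-fold (log2 difference -3.52, SE 0.86, adjusted p = 0.0475), or -3.07 after signals under the 40th percentile were raised to it. Its other 2 probe sets gave -1.91 (adjusted p = 0.0812) and -1.87 (adjusted p = 0.155), neither called, although the groups did not overlap on either. The call was lost when 1 of 3 arrays was left out: naïve replicate 3 (-3.30, adjusted p = 0.164), naïve replicate 5 (-3.47, adjusted p = 0.128) or iLarge T replicate 4 (-4.01, adjusted p = 0.0828). Sema3d and Sema3f fell on the same arrays on which the mesothelial markers fell, and the part of those markers in either result was not tested.

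Sema3b, a close relative of Sema3f that lies near it on chromosome 9 with 3 protein-coding genes between, split by pair of arrays. Its signals were 42.0, 3283 and 4397 on the naïve and 48.3, 751 and 979 on the iLarge T arrays, so that naïve replicate 1 and iLarge T replicate 2 were near background and the other 4 were not. The difference was -1.36 (SE 1.72, adjusted p = 0.765) over all arrays. With those 2 arrays left out it was -2.15 (adjusted p = 0.00424), over 2 arrays a group and in a fit chosen after seeing the data. Sema3a, the founding axon repellent and a neuropilin-1 ligand, gave 5314, 2217 and 2410 against 5371, 4139 and 2348, with the groups overlapping (0.29, SE 0.43, adjusted p = 0.802). Sema3c, which binds both neuropilins, gave 15199, 13514 and 15137 against 9885, 24652 and 13884 (0.04, SE 0.33, adjusted p = 0.972). The 95% interval of the Sema3c difference ran from -0.69 to 0.77, so that a change of 2-fold or more at this probe set lies outside it. Sema3g, a vascular member, was at 269, 137 and 204 against 177, 74.3 and 983. It exceeded the 40th percentile clearly on iLarge T replicate 6, the array with the highest endothelial and macrophage marker sums. The part of those markers in the Sema3g signal was not tested.

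The membrane semaphorins were marked by Sema7a. It was called higher, the 12 other genes were not called, and the median difference of the 13 was 0.31. Sema7a is held to the membrane by a glycosylphosphatidylinositol anchor and binds beta-1 integrins and plexin-C1. Its signals were 334, 69.7 and 251 on the naïve arrays and 19273, 8503 and 4931 on the iLarge T arrays. Every iLarge T signal was far above every naïve one, and 1 naïve array was near background. Levels were 218 ± 135 and 10902 ± 7466 (SD, n = 3), a rise of 51.7-fold (log2 difference 5.69, SE 0.66, adjusted p = 0.00183), or 5.19 with raised low signals. Within the 3 pairs of arrays the differences were 5.85, 6.93 and 4.29.

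The other Sema7a probe set gave 15.7, 20.2 and 7.88 on the naïve arrays, all near background, and 1216, 439 and 282 on the iLarge T arrays. It was at least 2.43-fold higher in iLarge T BMSC (measured log2 difference 5.29, adjusted p = 0.0211), the bound being the iLarge T level against the arrays' 40th percentiles in place of the dim signals. With low signals raised in that way the difference at this probe set was 1.28 and was not called (limma, adjusted p = 0.185). Of the partners of Sema7a, the integrin subunit Itgb1 gave 60735, 41625 and 43122 against 88688, 79525 and 76354 (0.77, SE 0.24, adjusted p = 0.118), without overlap but under 2-fold. Plxnc1, the plexin that binds Sema7a, gave 373, 399 and 255 against 145, 21.9 and 1078 (-1.16, SE 1.27, adjusted p = 0.721). Its one high value was on iLarge T replicate 6, where the leukocyte gene Ptprc stood at 4440 against at most 206 elsewhere, and the part of such cells in the Plxnc1 signal was not tested.

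Class 4 semaphorins, several of which act in the immune system or bind B-type plexins, gave no call, and none had an unadjusted p under 0.05 (limma). Their 6 differences ran from -0.50 to 0.26, of which 5 were negative, and all groups overlapped. Sema4b gave 1354, 605 and 789 against 726, 454 and 693 (-0.50, SE 0.50, adjusted p = 0.688). Sema4c, a ligand of plexin-B2, gave 1276, 1125 and 1103 against 634, 1085 and 1282 (-0.28). Sema4d, known as CD100 and a ligand of plexin-B1, gave 339, 1864 and 2076 against 510, 484 and 1972 (-0.48). Naïve replicate 1 was thus as low as iLarge T replicates 2 and 4, and iLarge T replicate 6 as high as the other 2 naïve arrays. Sema4f gave 1577, 2357 and 1885 against 5971, 935 and 658 (-0.31), with iLarge T replicate 2 far above the other 5 arrays. Without that array alone the difference was -1.29 (adjusted p = 0.161). With naïve replicate 1 left out too it was -1.43 (adjusted p = 0.0378). That fit rests on 2 arrays a group, was chosen after seeing the data, and called 6.99% of all genes higher and 7.02% lower. Sema4g gave 450, 448 and 307 against 283, 465 and 801 (0.26), and Sema4a, with 3 of 6 arrays near background, gave 344, 137 and 296 against 312, 173 and 121 (-0.37).

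Class 6 semaphorins act mainly through A-type plexins. At their main probe sets all 6 class 5 and 6 semaphorins had positive differences (median 0.58), as had 9556 of all 18193 genes. None of the 6 was called and none had an unadjusted p under 0.05 (limma). Secondary probe sets of Sema6c (-0.074) and Sema6d (-0.14 and -1.07) had negative differences, and the other secondary ones of these genes had positive differences. Sema6c gave 380, 740 and 796 against 2035, 746 and 1280 (1.04, SE 0.52, adjusted p = 0.348). Sema6d, a ligand of plexin-A1, gave 5245, 4257 and 4264 against 3670, 4899 and 12525 (0.41, adjusted p = 0.695), and its highest signal was on iLarge T replicate 6. Sema5a gave 466, 478 and 383 against 575, 1171 and 240 (0.31), and Sema5b gave 582, 79.2 and 196 against 701, 520 and 177 (0.95). Sema6b was near background on all naïve arrays and reached 321 on iLarge T replicate 4. Sema6a, a ligand of plexins A2 and A4, gave 291, 144 and 364 against 515, 179 and 407 at its main probe set (0.43, adjusted p = 0.842). A dimmer Sema6a probe set went from 16.8, 10.8 and 30.8, all near background, to 448, 291 and 322. It was called higher by at least 1.59-fold (measured log2 difference 4.29, adjusted p = 0.0419), but with low signals raised in that way the difference was 0.67 (adjusted p = 0.456). All 3 Sema6a probe sets had positive differences, and the other 2 were not called.

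**Figure D2:**
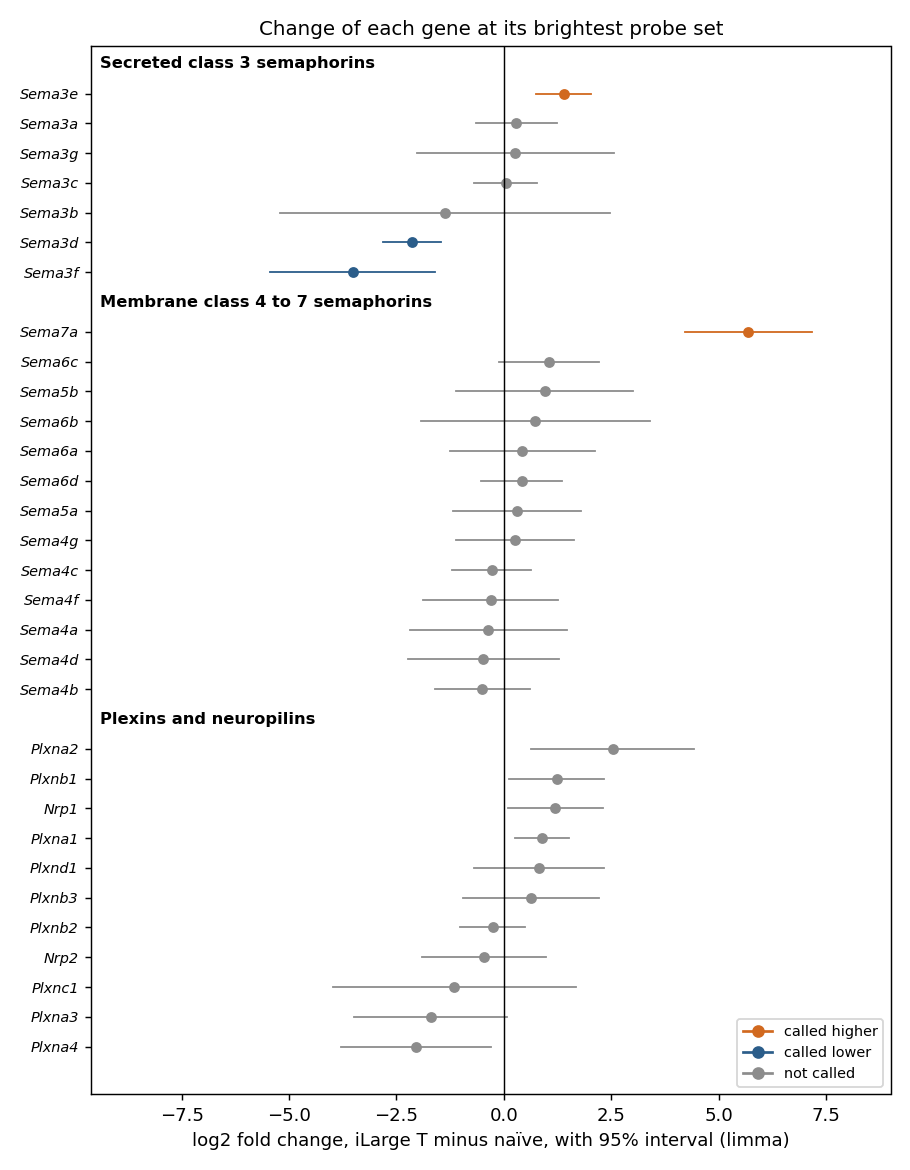
Difference between iLarge T and naïve BMSC (log2, horizontal axis) of the 31 genes at their main probe set, with the 95% interval of the limma fit, sorted within each role. The 2 genes called higher are Sema3e (1.40) and Sema7a (5.69), the 2 called lower are Sema3d (-2.14) and Sema3f (-3.52), and several plexins have intervals that leave out 0 without passing the adjusted threshold.

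None of the 9 plexins or 2 neuropilins was called at its main probe set. Receptor differences ranged from -2.05 to 2.54, with 6 positive and 5 negative and a median of 0.63. The 5 receptors with an unadjusted p under 0.05 were Plxna1, Plxna2, Plxna4, Plxnb1 and Nrp1.

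Plxna1, a signaling partner of neuropilin-1, gave 4128, 3415 and 4934 on the naïve and 5779, 8726 and 8720 on the iLarge T arrays. The groups did not overlap, and the difference was 0.89 (SE 0.28, adjusted p = 0.119), under 2-fold. Plxnb1, the Sema4d receptor, gave 286, 766 and 616 against 1251, 1073 and 1289, also without overlap (1.23, SE 0.50, adjusted p = 0.229). Plxna3, a partner of neuropilin-2, gave 1211, 814 and 614 against 464, 73.7 and 511, each iLarge T signal being below each naïve one (-1.70, SE 0.80, adjusted p = 0.309).

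Plxna2 and Plxna4, both receptors of Sema6a, were the plexins with the highest and the lowest difference. At their main probe sets neither was called over all 6 arrays, whereas both were called without naïve replicate 1. Plxna2 gave 5094, 407 and 394 on the naïve and 7549, 5411 and 3901 on the iLarge T arrays. Naïve replicate 1 thus lay among the iLarge T arrays, and the difference was 2.54 (SE 0.85, adjusted p = 0.140). Without naïve replicate 1 it was 3.76 (adjusted p = 0.000194), in a fit that called 7 members and 13.8% of all genes. All 4 Plxna2 probe sets had positive differences, and naïve replicate 1 was the highest naïve array on each. The dimmest gave 404, 95.4 and 14.8 against 965, 1363 and 1783, and was not called (adjusted p = 0.0704).

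Plxna4 gave 704, 7257 and 6836 on the naïve and 965, 685 and 746 on the iLarge T arrays (-2.05, SE 0.78, adjusted p = 0.197). Here too naïve replicate 1 lay with the iLarge T arrays, and without it the difference was -3.16 (adjusted p = 0.000257). The other Plxna4 probe set went from 897, 2698 and 3421 to 20.8, 17.9 and 230, with no overlap, and was called lower (-5.52, SE 1.06, adjusted p = 0.0174). With raised low signals the difference was -2.92. The mesothelial sums were low on the 3 iLarge T arrays, where Plxna4 was low. Naïve replicate 1, with a Plxna4 signal of 704, had a mesothelial sum of 156579. The largest parts of that sum were Upk1b (94659) and Bnc1 (31530), which were highest on that array. Upk3b, Msln, Wt1, Lrrn4 and Krt19 were lower on it than on naïve replicates 3 and 5, as Plxna4 was. Msln, for example, gave 1022 against 42403 and 40853, and Wt1 gave 2274 against 14912 and 13504. The part of those markers in the Plxna4 signals was not tested.

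The remaining plexins did not separate the groups. Plxnb2, the receptor of Sema4c, gave 15523, 23069 and 19959 against 9461, 19613 and 22346 (-0.26, SE 0.34, adjusted p = 0.773; 95% interval -1.02 to 0.50). Plxnd1, the receptor of Sema3e, gave 366, 2394 and 1527 against 1047, 2275 and 3051 (0.81, SE 0.68, adjusted p = 0.619). Its 95% interval ran from -0.70 to 2.33, which includes both no change and the rise measured for Sema3e. Plxnb3 gave 719, 363 and 162 against 859, 345 and 536 (0.63).

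Nrp1, the receptor for Sema3a that also binds VEGF, gave 29189, 10504 and 10161 on the naïve and 66247, 23524 and 24125 on the iLarge T arrays. The groups overlapped, because naïve replicate 1 lay above iLarge T replicates 4 and 6, and Nrp1 was not called (1.20, SE 0.49, adjusted p = 0.239). Within the 3 pairs of arrays with like spike-in signals, however, the iLarge T signal was higher by 1.18, 1.16 and 1.25. With these pairs as a block, a fit chosen after seeing the data, the SE was 0.15 and the adjusted p = 0.00449, and 3 of the 4 Nrp1 probe sets were called. Without naïve replicate 1 the unblocked difference was 1.70 (adjusted p = 0.0251). In the blocked fit 6 members were called, beside 9.87% of all genes in either direction, and Plxna2 (adjusted p = 0.0339) and Nrp1 joined Sema7a and Sema3e as higher. Nrp2, the receptor for Sema3f, gave 1026, 4477 and 6219 against 1169, 3157 and 2969 (-0.46, SE 0.65, adjusted p = 0.794), while 2 of its other probe sets gave 1.17 and 1.05, neither called.

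**Figure D3:**
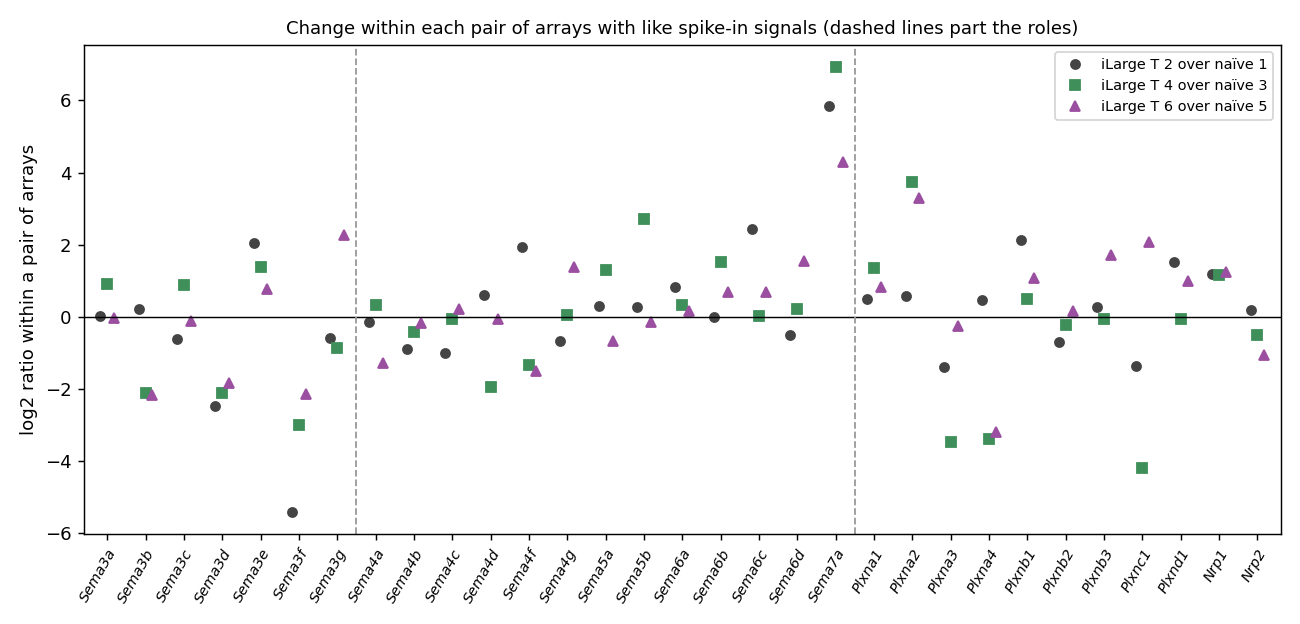
Log2 ratio of iLarge T to naïve signal (vertical axis) for each gene within each of the 3 pairs of arrays with like spike-in signals. Nrp1 has 3 nearly equal ratios (1.18, 1.16 and 1.25), Sema3d, Sema3f, Sema3e and Sema7a keep one direction in all pairs, and Plxna2, Plxna4 and Sema3b differ between the first pair and the other 2.

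Taking all members by pair, the 3 ratios were all above 0 for 8 and all below 0 for 4, beside 25.8% and 22.5% of all genes. The first pair, naïve replicate 1 with iLarge T replicate 2, departed from the others for Plxna2 (0.57 against 3.73 and 3.31) and for Plxna4 (0.46 against -3.41 and -3.20). With both arrays of that pair left out 10 members were called, 5 higher and 5 lower, beside 6.99% and 7.02% of all genes. Sema3b, Sema4f and Plxna4 were then lower beside Sema3d and Sema3f, and Plxna1 (1.09, adjusted p = 0.0207), Plxna2 (3.52, adjusted p = 0.000762) and Nrp1 (1.21, adjusted p = 0.00296) were called higher beside Sema7a and Sema3e. These fits rest on 2 arrays a group and were also chosen after seeing the data.

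**Figure D4:**
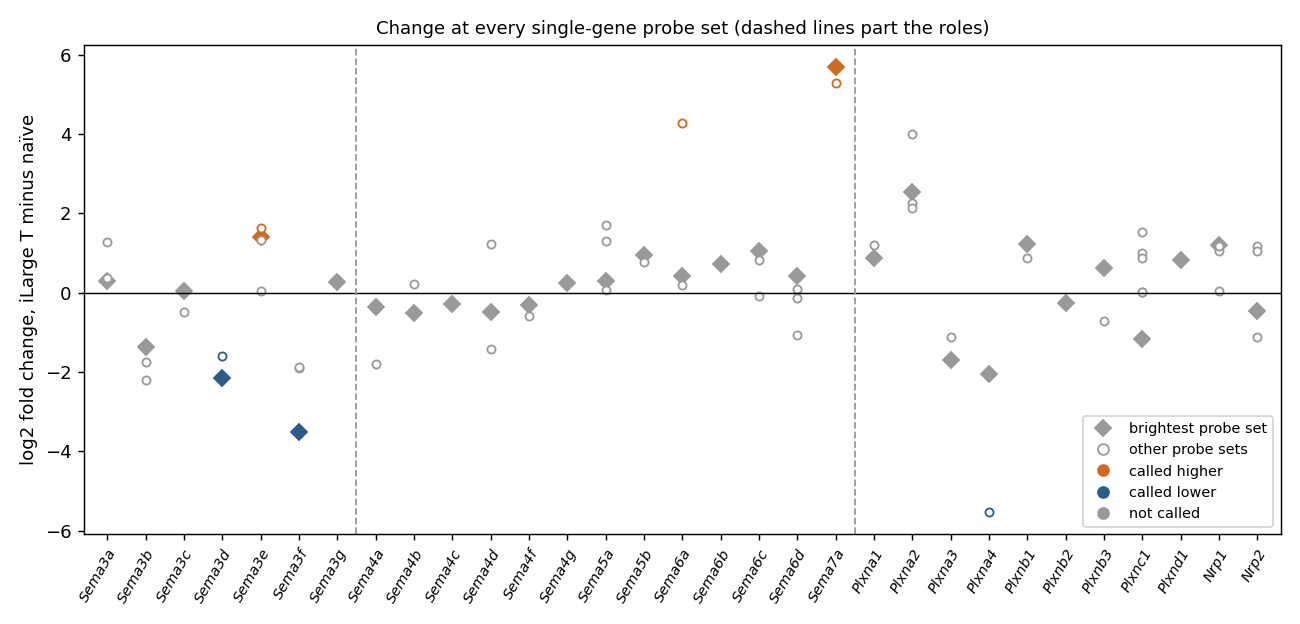
Difference between iLarge T and naïve BMSC (log2, vertical axis) at every single-gene probe set of the 31 genes, with the main probe set as a diamond and the others as circles. Both probe sets of Sema7a and of Sema3d were called alike, whereas Sema6a and Plxna4 were each called at a secondary probe set alone.

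Probe sets of 1 gene also disagreed in direction, in each case without a call on either side. Against their main probe sets, secondary ones gave -0.48 for Sema3c, 0.22 for Sema4b, 1.23 for Sema4d, -0.074 for Sema6c, -0.14 and -1.07 for Sema6d, and -0.71 for Plxnb3. For Plxnc1 all 5 secondary probe sets had positive differences, the highest being 1.52, against -1.16 at the main one. Several of these secondary probe sets were near background on most arrays.

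Genes that work with these ligands and receptors were described from lists by role. Among 13 co-receptors and membrane partners 2 rose and 1 fell (median 0.47), beside 3.54% higher and 3.26% lower over all genes. Nrcam, a cell adhesion molecule that pairs with neuropilins in axons, went from 151, 28.0 and 46.4, all near background, to 3762, 4681 and 1214, at least 12.7-fold (measured log2 difference 5.58, adjusted p = 0.00520). Flt1, a VEGF receptor that associates with neuropilin-1, went from 261, 172 and 40.1, also near background, to 1303, 773 and 3136, at least 6.71-fold (3.59, adjusted p = 0.0412). Its highest signal was on iLarge T replicate 6, the array with the highest endothelial marker sum, and the part of those markers was not tested. Met, the HGF receptor that associates with B-type plexins, fell from 4695, 9875 and 9035 to 676, 2420 and 883 (-2.73, adjusted p = 0.0131).

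Of 36 measured cytoplasmic effectors of the pathway, out of 39 listed, 1 rose and 0 fell (limma, median 0.17, with 6 and 3 at an unadjusted p under 0.05). The called gene was 2.78% of the effectors, beside 6.80% of all genes called in either direction. Of all 18193 genes, 2106 were higher and 1905 lower at an unadjusted p under 0.05 (limma). Crmp1, a collapsin response mediator that relays the Sema3a signal to microtubules, went from 149, 84.1 and 139, all near background, to 1759, 2264 and 3244, at least 10.7-fold (4.29, adjusted p = 0.00260). All 3 iLarge T arrays were high. Its relative Dpysl5 went from 354, 484 and 601 to 67.7, 11.6 and 32.0, but was not called (adjusted p = 0.0561). The small GTPase Rac1 gave 96767, 74218 and 75241 against 91306, 88358 and 70849 (0.03, SE 0.24, adjusted p = 0.975). None of the 6 enzymes that process semaphorins was called by limma, with a median of 0.24 and 2 lower at an unadjusted p under 0.05. Among them Pcsk6, a proprotein convertase, gave 2946, 3826 and 3888 against 1107, 2002 and 994 (-1.44, adjusted p = 0.0513), and Furin gave 2315, 4374 and 5481 against 4651, 6665 and 8923 (0.77, adjusted p = 0.332). Of 2 plexin domain proteins that are no plexins, Plxdc2 rose from 2863, 3229 and 3209 to 7384, 8376 and 9159 (1.42, adjusted p = 0.0107), and Plxdc1 gave -3.23 (adjusted p = 0.117).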

How the data were processed

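RNA of 3 naïve Large T and 3 iLarge T BMSC pools was measured on Affymetrix Mouse Genome arrays, and groups were taken from the sample labels. The deposited intensity values are MAS5 signals, which the authors scaled to a common trimmed mean on each array; single probes, and so depth, were not used here, and the 3 arrays a group limit the precision. Signals were put on the log2 scale and 45037 probe sets other than the 64 controls were fitted with limma 3.58.1 (R 4.3.3), whose eBayes step used an intensity trend, in place of the methods' t-test because 3 arrays give a poor estimate of the spread. P-values were adjusted by Benjamini-Hochberg over all probe sets, and a call needed an adjusted p under 0.05 and at least 2-fold. They measure the spread between pools. Of the probe sets, 34945 name 1 gene, 932 several and 9160 none in GEO's platform annotation, and those with 1 gene were used. Every member was described by role, with any probe set that differed in call or direction, and of the pathway lists every called gene. Where all arrays of a group were under the 40th percentile of their array, a bound is given instead of a fold. The script was tested on simulated data. Tried instead were the methods' t-test on log2 or linear signals, limma without the trend, quantile normalization, raised low signals, a filter on dim probe sets, log2 of the signal plus 16, the mean or the most variable probe set of a gene, other minimum folds and leaving out each array. A fit with spike-in pairs as a block and one without the first pair were added after seeing the data. The members and lists were chosen with earlier results of these data known. Rhod, Pak1 and Ptk2 of the effectors and Ly6a of the stromal markers had no single-gene probe set used here.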

Additional observations from a re-analysis of the deposited data

How the results depend on the processing

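With 2 members higher and 2 lower as reported, the methods' t-test on log2 signals and on linear signals gave 0 higher and 0 lower after adjustment, as did limma without the intensity trend (at an unadjusted p under 0.05, the log2 t-test gave 4 and 2, the linear one 3 and 2, and limma without the trend 3 and 2). Quantile normalization and leaving out dim probe sets each gave 1 lower, the mean of the probe sets gave 1 higher, and a minimum of 3-fold gave 1 higher. The spike-in pairs as a block gave 4 higher, and leaving out naïve replicate 1 with iLarge T replicate 2 gave 5 higher and 5 lower. Leaving out 1 array at a time gave 1 to 4 higher and 1 to 3 lower: 4 higher without naïve replicate 1, 1 higher without iLarge T replicate 2, naïve replicate 3, iLarge T replicate 4 or naïve replicate 5, and 1 lower without naïve replicate 3, iLarge T replicate 4 or naïve replicate 5. The cause was not tested. Shares of all genes were counted for the main and blocked fits and those without naïve replicate 1 or without the first pair. For the other settings no such share was counted, so their member counts cannot be set against all genes. Sema7a and Sema3d kept their calls under 14 of 17 alternatives each (log2 differences of 5.01 to 6.15, adjusted p = 5.56e-07 to 0.399, and of -2.38 to -1.87, adjusted p = 0.000186 to 0.0993), and Sema3e and Sema3f under 9 of 17 each (1.08 to 1.64, adjusted p = 0.00579 to 0.187, and -4.25 to -2.30, adjusted p = 0.000464 to 0.323). Sema3f was also not called with quantile normalization (adjusted p = 0.0620) or without dim probe sets (adjusted p = 0.0576). Plxna2 was called after low signals were raised to their 40th percentile (adjusted p = 0.0209), and Plxna4 with the mean of its probe sets (-3.78, adjusted p = 0.0288).

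Of 525 member values under alternatives, 459 kept direction and side of the threshold, 15 passed it, 22 lost it and 29 changed sign, all of the last in genes that were not called. With the mean of the probe sets, Sema3c gave -0.22, Sema6d -0.17, Plxnb3 -0.037, Plxnc1 0.38 and Nrp2 0.16. With the most variable probe set, Sema4b gave 0.22, Sema6c -0.074, Sema6d -1.07 and Plxnb3 -0.71. On linear signals Sema4f gave 0.38 and Plxnc1 0.28, with low signals raised Plxnc1 gave 0.41, after quantile normalization Sema4g gave -0.00083, and without the first pair of arrays Sema4c gave 0.083. Leaving out 1 array at a time, Sema3b ranged from -3.53 to 0.019, Sema3c from -0.32 to 0.34, Sema3g from -0.77 to 1.09, Sema4c from -0.49 to 0.017, Sema4f from -1.29 to 0.30, Sema4g from -0.12 to 0.63, Sema5a from -0.25 to 0.90, Sema6b from -0.19 to 1.25, Sema6d from -0.11 to 0.78, Plxnb2 from -0.50 to 0.12, Plxnc1 from -2.58 to 0.23 and Nrp2 from -1.25 to 0.051. No paired analysis by the labels was possible because the groups share no replicate numbers, and the pairs used here come from the spike-in controls.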
